A study of Mus musculus with 6 samples.

Results

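The genes described here are the protein-coding rows of the deposited count table that are named as cytosolic ribosomal proteins: symbols that start with Rpl or Rps and a number, with Rplp0, Rplp1, Rplp2 and Rpsa. Ribosomal protein S6 kinases and rows named as pseudogenes were left out. The rule found 84 of the 19618 rows, 35 named for the small subunit and 49 for the large subunit. All 84 passed the low-count filter and were tested. Among the rows that met the rule, Rps19bp1 encodes a protein that binds Rps19 and is not itself a ribosomal protein, and Rps23rg1 is a retrogene of Rps23.

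RNA was sequenced from tail skin keratinocytes of mice aged 4 months, in 3 libraries of Gpr161 epidermal knockout mice and 3 of control mice. Knockout mice were K14cre+ and Gpr161Flox-Homozygous, so that Cre recombinase was made under the keratin 14 promoter, which is active in basal keratinocytes and their descendants in stratified epithelia. The controls had no K14cre in their labels. Control 1 was Gpr161Flox-Homozygous and the other controls were Gpr161Flox-Heterozygous, so both groups carried at least 1 floxed allele and neither was labelled wild type. The columns of the count table give the group and a tag but no sample title, so libraries are named here by tag: DE679, DE685 and DE688 are labelled knockout, and DE680, DE684 and DE689 are labelled control. Which tag is the homozygous control is not given by the labels, and the sex of the mice is not either. Nothing in the labels says in so many words that each library is a separate mouse, so p-values measure only the spread between these samples.

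A ribosome is built from a small subunit, which reads the mRNA, and a large subunit, which joins amino acids, and each is made of ribosomal RNA and a set of proteins. In mammals nearly all of these proteins are needed in equal amounts, and their mRNAs are among the most abundant in a dividing cell. Their mRNAs begin with a run of pyrimidines, the 5′ terminal oligopyrimidine motif, through which mTOR signalling and the protein LARP1 control how much they are translated. In the epidermis the basal keratinocytes divide and make new ribosomes, and cells stop doing so as they move up and cornify. Ribosomal protein genes also have many processed pseudogenes, intronless copies made by reverse transcription of the mRNA, whose sequence can be nearly that of the parent.

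Total estimated counts ran from 17157864 in DE685 to 25344399 in DE689. Levels are given as CPM, counts divided by the library total after that total was scaled by TMM (trimmed mean of M values). The factors were 1.01 to 1.03 in the knockout and 0.975 to 0.995 in the control libraries, so scaling lowered knockout CPM relative to control CPM. In these units 3 counts correspond to 0.117 to 0.173 CPM. Y-linked counts were 3311 in DE685 and 5291 in DE684 and at most 3 in the other libraries. Gpr161, the targeted gene, had 26.8, 33.6 and 25.9 CPM in the knockout libraries (DE679, DE685, DE688) and 30.2, 32.2 and 31.9 CPM in the control libraries (DE680, DE684, DE689). Its log2 fold change was −0.13 (SE 0.11, Benjamini-Hochberg adjusted p = 0.553 in the quasi-likelihood test of edgeR), and counts over the whole gene do not check the labels. The defining keratinocyte markers were abundant: the 6 basal markers, among them Krt5 and Krt14, summed to 29179 to 33215 CPM in the knockout and 25769 to 30700 CPM in the control libraries. The 7 differentiation markers in the table summed to 17881 to 25083 and 20159 to 33941 CPM. Of the 6 fibroblast markers 1, Dcn, was higher at an adjusted p under 0.05, and their summed level was 129 to 142 CPM in the knockout and 37.4 to 79.1 CPM in the control. Melanocyte markers summed to 79.2 to 117 against 54.0 to 78.9 CPM, and the 6 hair follicle markers to 3968 to 4465 against 3068 to 3663 CPM. Immune markers overlapped between the groups (41.5 to 93.9 against 22.0 to 78.4 CPM), as did dissociation stress genes (1193 to 1422 against 1075 to 1465 CPM) and endothelial markers (3.47 to 4.90 against 4.60 to 7.37 CPM). Muscle markers were near 0, at 1.83 to 1.91 against 1.51 to 2.42 CPM for the 3 of 6 in the table. The part of these cell types in the results below was not tested.

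The ribosomal protein genes were lower in the libraries labelled knockout by a small amount that was much alike from gene to gene, and none passed the adjusted threshold. Of the 84 members, 82 had a log2 fold change below 0, where 50.7% of all 15422 genes tested were below 0. Their median log2 fold change was −0.15, with quartiles of −0.17 and −0.11, against −0.0036 for all genes. No member passed an adjusted p under 0.05 with edgeR, a threshold that 1.6% of all genes passed (1.24% higher and 0.357% lower). At an unadjusted p under 0.05, 33 members were lower and 0 were higher in that test, where 9.1% of all genes were lower and 19.0% differed either way. The knockout CPM lay below the control CPM without overlap for 51 members, against 12.8% of all genes, and above for 0. In bulk RNA, fewer cells of a type and less RNA per cell cannot be told apart.

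**Figure D1:**
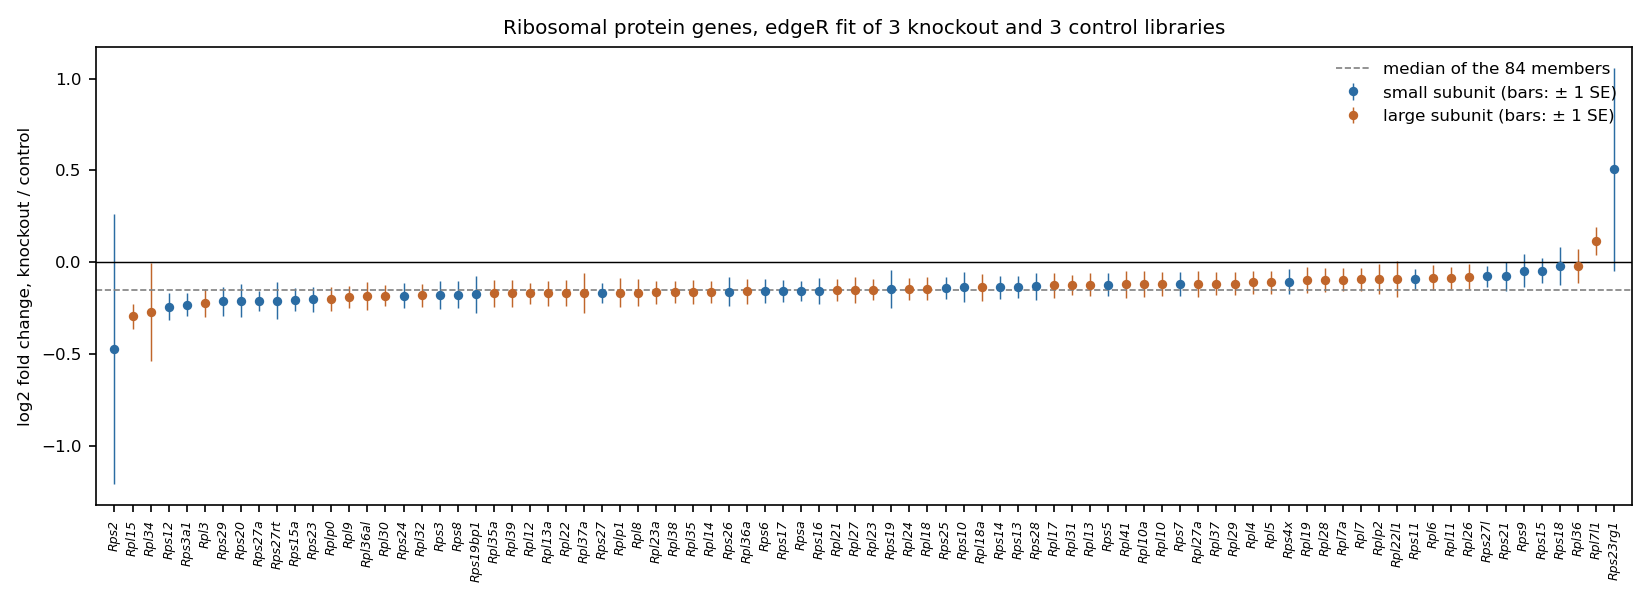
Log2 fold change (knockout over control) of each of the 84 ribosomal protein genes on the vertical axis, ordered from lowest to highest, with bars of 1 SE on each side from the edgeR fit of 3 and 3 libraries; blue is the small subunit and orange the large. 82 genes lie below 0 and gather near the dashed median of −0.15, while Rps2, Rpl34 and Rps23rg1 have wide errors.

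DESeq2, another test on the same counts, called 5 members lower: Rpl15 (adjusted p = 0.00264), Rps3a1 (0.00729), Rps27a (0.0115), Rps12 (0.0404) and Rpl12 (0.0496). Of the 15422 genes tested it called 879, 569 higher and 310 lower, where edgeR called 247, 192 higher and 55 lower. Leaving out 1 library at a time kept 79 to 82 members below 0 and a median of −0.18 to −0.11. The number of members lower at an unadjusted edgeR p under 0.05 was 10 without DE679, 7 without DE680, 16 without DE684, 9 without DE685, 11 without DE688 and 47 without DE689. The shares of all genes lower at that threshold in these fits are not given. Without DE680, the knockout lay below the control without overlap for 51 members and 19.5% of all genes. Without DE689 it did so for 74 members and 17.7% of all genes.

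The difference between the groups was carried unevenly by the libraries. As a share of all counts, the members held 6.41%, 6.04% and 6.54% in the knockout libraries (DE679, DE685, DE688) and 7.07%, 6.66% and 6.60% in the control libraries (DE680, DE684, DE689). The control libraries were all above the knockout libraries, and the gap between the nearest of them, DE688 and DE689, was small beside the range within either group. The means were 6.33% ± 0.260 in the knockout and 6.78% ± 0.258 in the control (SD, n = 3 each), a difference of −0.449 percentage points. These shares are not scaled by TMM, and the log2 ratio of their means was −0.099. An exact two-sided permutation test gave p = 0.1, the smallest p that 3 against 3 libraries allow.

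Gene by gene, DE680 was the highest library for 68 of the 84 members and DE685 the lowest for 68. The median member was 0.149 above its own 6-library mean on the log2 scale in DE680 and 0.078 above it in DE684. In DE689 the median deviation was −0.0040, against −0.039 in DE679, −0.048 in DE688 and −0.119 in DE685. With DE680 and DE685 both left out, a comparison added after seeing the data, 75 members were below 0, the median was −0.08 and 3 were lower at an unadjusted edgeR p under 0.05. The share of all genes lower in that comparison is not given. DE685 also had the lowest total count and, with DE684, Y-linked counts; a fit with a sex term gave a median of −0.15, and the part of depth in the position of DE685 was not tested.

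**Figure D2:**
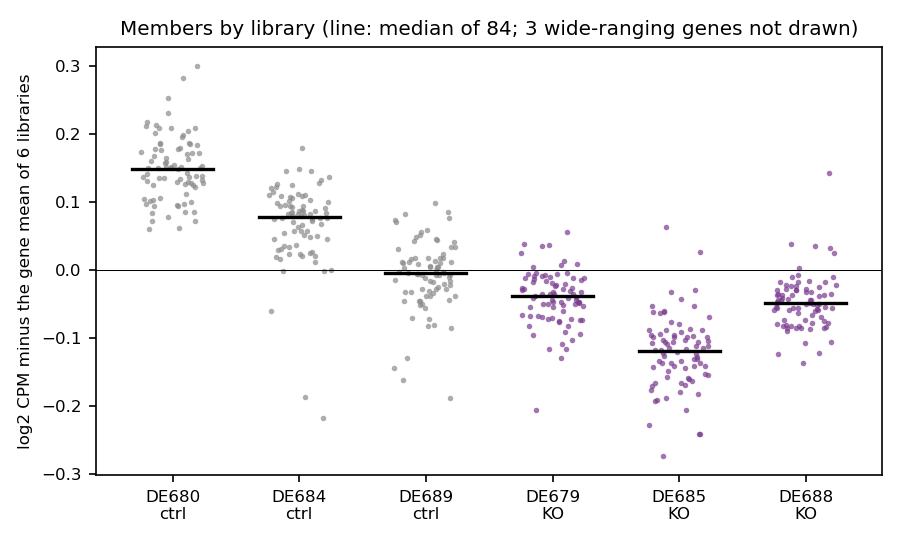
Each point is 1 ribosomal protein gene in 1 library, plotted as its log2 CPM minus the mean of that gene over the 6 libraries; black lines are the median of all 84 members, and 3 wide-ranging genes (Rps2, Rpl34, Rps23rg1) are not drawn. DE680 sits highest (median 0.149) and DE685 lowest (median −0.119), with DE689, DE679 and DE688 close to 0.

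Among the 35 small subunit genes, 34 were below 0 and the median log2 fold change was −0.16. At an unadjusted edgeR p under 0.05, 15 were lower, against 9.1% of all genes. For 23 the knockout lay below the control without overlap, against 12.8% of all genes. Rps3a1, whose protein lies near the mRNA exit of the small subunit, had 1417, 1428 and 1412 CPM in DE679, DE685 and DE688 and 1730, 1683 and 1580 CPM in DE680, DE684 and DE689. The knockout libraries were almost equal to each other and below every control library, and the log2 fold change was −0.23 (SE 0.06, adjusted p = 0.111, edgeR). Rps27a, made as a fusion of ubiquitin and a ribosomal protein, had 606, 610 and 607 CPM in the knockout and 725, 704 and 679 CPM in the control libraries. It too had knockout libraries that were nearly the same, with a log2 fold change of −0.21 (SE 0.06, adjusted p = 0.112, edgeR).

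Rps12 had 873, 810 and 872 CPM in the knockout and 1072, 1025 and 923 CPM in the control libraries, without overlap, for a log2 fold change of −0.24 (SE 0.07, adjusted p = 0.151, edgeR). Rps15a had 453, 439 and 459 CPM against 543, 525 and 487 CPM, also without overlap, for −0.20 (SE 0.06, adjusted p = 0.151, edgeR). Rpsa, which is known both as a part of the small subunit and as a laminin receptor, was among the 3 highest members by mean CPM. Its levels were 1749, 1682 and 1709 CPM in the knockout and 1947, 1916 and 1865 CPM in the control libraries. The control was higher in every library, and the log2 fold change was −0.16 (SE 0.06, adjusted p = 0.200, edgeR).

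Among the 49 large subunit genes, 48 were below 0 and the median was −0.15. At an unadjusted edgeR p under 0.05, 18 were lower (9.1% of all genes), and 28 lay below the control without overlap (12.8% of all genes). Rpl4, a protein that reaches into the exit tunnel for the growing chain, had 1944, 1854 and 1919 CPM in the knockout and 2165, 2026 and 1979 CPM in the control libraries. Its groups did not overlap, and its log2 fold change of −0.11 (SE 0.06, adjusted p = 0.376, edgeR) was below the median of the members in size. Rpl12, at the base of the stalk, had 1131, 1109 and 1131 CPM against 1302, 1233 and 1256 CPM. All 3 control libraries were higher, for a log2 fold change of −0.17 (SE 0.06, adjusted p = 0.172, edgeR).

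Rplp0, Rplp1 and Rplp2 form the stalk, the arm of the large subunit that recruits and activates the translation factors. Rplp0 was the most abundant member by CPM, with 3000, 2721 and 2897 CPM in the knockout and 3448, 3259 and 3188 CPM in the control libraries. The groups did not overlap, and the log2 fold change was −0.20 (SE 0.07, adjusted p = 0.174, edgeR). Rplp1 had 1551, 1401 and 1558 CPM against 1837, 1612 and 1609 CPM, for −0.17 (SE 0.08, adjusted p = 0.302, edgeR). Rplp2 had 480, 431 and 497 CPM against 530, 510 and 460 CPM, and here the groups overlapped, with a log2 fold change of −0.09 (SE 0.08, adjusted p = 0.572, edgeR). Per kilobase of the shortest annotated transcript with the full coding sequence, Rplp1 had the highest mean level of the 83 members with such a transcript (3196 CPM per kb), followed by Rps27 (2543) and Rplp0 (2272). This order depends on which annotated transcript is used for the length.

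Rpl22l1, Rps27l and Rpl36al are paralogs of other members. Rpl22l1, the paralog of Rpl22, had 63.3, 62.8 and 65.1 CPM in the knockout and 71.9, 74.2 and 57.5 CPM in the control libraries, for a log2 fold change of −0.09 (SE 0.10, adjusted p = 0.652, edgeR). Rps27l had 63.1, 65.1 and 66.0 CPM against 71.4, 66.4 and 67.0 CPM, without overlap but by a narrow margin, for −0.08 (SE 0.06, adjusted p = 0.513, edgeR). Rpl36al had 150, 139 and 148 CPM against 182, 161 and 154 CPM, for −0.18 (SE 0.07, adjusted p = 0.237, edgeR). These 3 were below their namesakes Rpl22, Rps27 and Rpl36a per kilobase of transcript: Rpl22l1 had 125 CPM per kb and Rpl22 693, Rps27l 133 and Rps27 2543, and Rpl36al 296 and Rpl36a 886.

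Rpl7l1, a paralog of Rpl7 known from the assembly of the large subunit, was the only member with a mean of at least 1 CPM that lay above 0. It had 78.4, 79.5 and 86.2 CPM in the knockout and 81.4, 68.5 and 75.3 CPM in the control libraries, overlapping, for a log2 fold change of 0.12 (SE 0.08, adjusted p = 0.450, edgeR). Rpl36 and Rps18 came next, with log2 fold changes of −0.02 each. Rpl36 had 501, 475 and 508 CPM against 574, 476 and 454 CPM, so that its control libraries spanned the knockout. The 3 least abundant members were Rps23rg1 (0.214 to 0.868 CPM over the 6 libraries, log2 fold change 0.51, SE 0.55, adjusted p = 0.655, edgeR), Rps19bp1 (13.7 to 17.2 CPM, −0.18, adjusted p = 0.385, edgeR) and Rps27rt (14.2 to 19.1 CPM, −0.21, adjusted p = 0.304, edgeR). Rps27rt is a retrocopy of Rps27, so its reads may be shared with that gene.

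Rpl15, a large subunit protein held deep in the ribosomal RNA, had the smallest p of the members and the second lowest log2 fold change. The gene lies on the minus strand of chromosome 14, 18267823 to 18271391 in GRCm38. It had 716, 657 and 733 CPM in DE679, DE685 and DE688, against 900, 859 and 822 CPM in DE680, DE684 and DE689. Every knockout library was below every control library, and the means ± SD were 702 ± 40.2 and 860 ± 38.6 CPM (n = 3 each). Rpl15 had a log2 fold change of −0.29 (SE 0.07, unadjusted p = 0.0028, adjusted p = 0.0886, edgeR), or 18.4% lower. The other 83 members had a median of −0.15 with an SD of 0.0975, or 0.0667 without the sparse Rps23rg1, so that Rpl15 was 0.14 below their median. Rps2 alone was lower, and its groups overlapped. Over the fits that left out 1 library, Rpl15 stayed between −0.33 and −0.25.

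The table holds 8 pseudogene rows whose sequence matches Rpl15 over at least 90% of the aligned bases, and several of them differed between the groups in the other direction. The stretch below is from position 138 to 174 of the coding sequence, counted from 1 at the A of the start codon, and is shown because it holds a base carried by the 4 rows shown that were higher in the knockout and not by the other 2. Sequences are the GENCODE M21 transcripts (GRCm38). Capitals in the Rpl15 line mark the positions at which any of the lines differ, and capitals in the other lines mark a base that differs from Rpl15.
Rpl15: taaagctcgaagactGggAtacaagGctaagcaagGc
Rpl15-ps6: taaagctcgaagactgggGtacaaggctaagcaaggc
Rpl15-ps2: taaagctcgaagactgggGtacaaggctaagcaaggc
Gm8420: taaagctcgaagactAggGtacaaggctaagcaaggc
Gm5292: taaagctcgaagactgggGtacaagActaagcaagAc
Rpl15-ps3: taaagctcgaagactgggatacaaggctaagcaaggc
Gm4294: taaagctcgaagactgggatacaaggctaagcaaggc

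Written with the Rpl15 base first, the shared difference is A156G. Rpl15-ps6 (chromosome 15, 52477617 to 52478228, minus strand) differs from Rpl15 at 2 of 612 aligned bases, A156G and C202A. It had 56.1, 57.6 and 57.2 CPM in DE679, DE685 and DE688, against 0.120, 0.368 and 0.237 CPM in DE680, DE684 and DE689. The knockout libraries were close to one another and far above the controls (log2 fold change 7.85, SE 0.18, adjusted p = 1.85e-06, edgeR).

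Rpl15-ps2 (chromosome 9, 72060937 to 72061549, plus strand) differs at 8 of 613 bases, A156G among them. It had 29.4, 26.4 and 28.5 CPM in the knockout libraries and at most 1.56 estimated counts in a control library, so it was at least 211-fold higher against a floor of 3 counts per library (adjusted p = 3.57e-05, edgeR). Gm8420 (chromosome 1, 51940664 to 51941261, minus strand) carries A156G among 20 differences. It had 3.34, 2.58 and 2.34 CPM in the knockout and under 3 counts in every control, and was at least 20.7-fold higher (adjusted p = 0.00531, edgeR). Gm5292 (chromosome 5, 43943903 to 43944482, minus strand) carries A156G among 23 differences and had 0.627, 0.888 and 0.492 CPM against 0 counts, at least 5.03-fold higher (adjusted p = 0.0366, edgeR). The call of Gm5292 was lost in each fit that left out 1 library (adjusted p = 0.0659 to 0.150, edgeR). Without both DE680 and DE685, Gm8420 (adjusted p = 0.0703, edgeR) and Gm5292 (adjusted p = 0.130, edgeR) no longer passed. On log2 of the deposited normalized values plus 1, tested with limma, the differences were 5.54 for Rpl15-ps6, 4.83 for Rpl15-ps2, 1.89 for Gm8420 and 0.73 for Gm5292, and the last of these was not called.

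Rpl15-ps3 (chromosome 9, 22185607 to 22186221, minus strand) has no difference from Rpl15 over 615 bases and went the other way. It had 1.36, 1.43 and 0.827 CPM in the knockout and 7.17, 6.60 and 4.12 CPM in the control libraries, without overlap (log2 fold change −2.31, SE 0.31, adjusted p = 0.0168, edgeR, 0.0235 to 0.0690 without 1 library and 0.120 without both DE680 and DE685). Gm4294, with 1 difference (G611A) and no A156G, had 5.41, 3.81 and 3.58 CPM against 4.94, 6.94 and 6.39 CPM, and its groups overlapped (−0.51, adjusted p = 0.272, edgeR). The other matched rows, Gm6937 and Gm13688, carry A156G and stayed under 1 CPM in every library. Rows this similar can take reads of one another, so the count of each alone is uncertain. Whether the reads counted on a pseudogene row came from that copy, or from a parent gene that carried the same base in some of the mice, was not tested, here and in the families described further on. The lower count of Rpl15 and the higher counts of its pseudogene rows are differences between rows of the table and do not give the amount of RNA made from each locus.

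Together, the matched pseudogene rows held 11.9%, 12.4% and 11.3% of the counts of Rpl15 and its copies in DE679, DE685 and DE688, and 1.37%, 1.61% and 1.32% in DE680, DE684 and DE689. Summed over all 9 rows, the level was 813, 749 and 826 CPM in the knockout and 913, 873 and 833 CPM in the control libraries. The groups still did not overlap, but DE688 and DE689 were now close. The log2 fold change of the sum was −0.13 (SE 0.07, adjusted p = 0.313, edgeR), and an exact two-sided permutation test of the summed CPM gave p = 0.1, the smallest possible. With every member summed with its own matched rows, the other 83 members had a median of −0.146, and 49 of them were lower than the Rpl15 sum. On this scale Rpl15 lay 0.013 above the median of the others. The summing was chosen after the pseudogene counts had been seen.

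**Figure D3:**
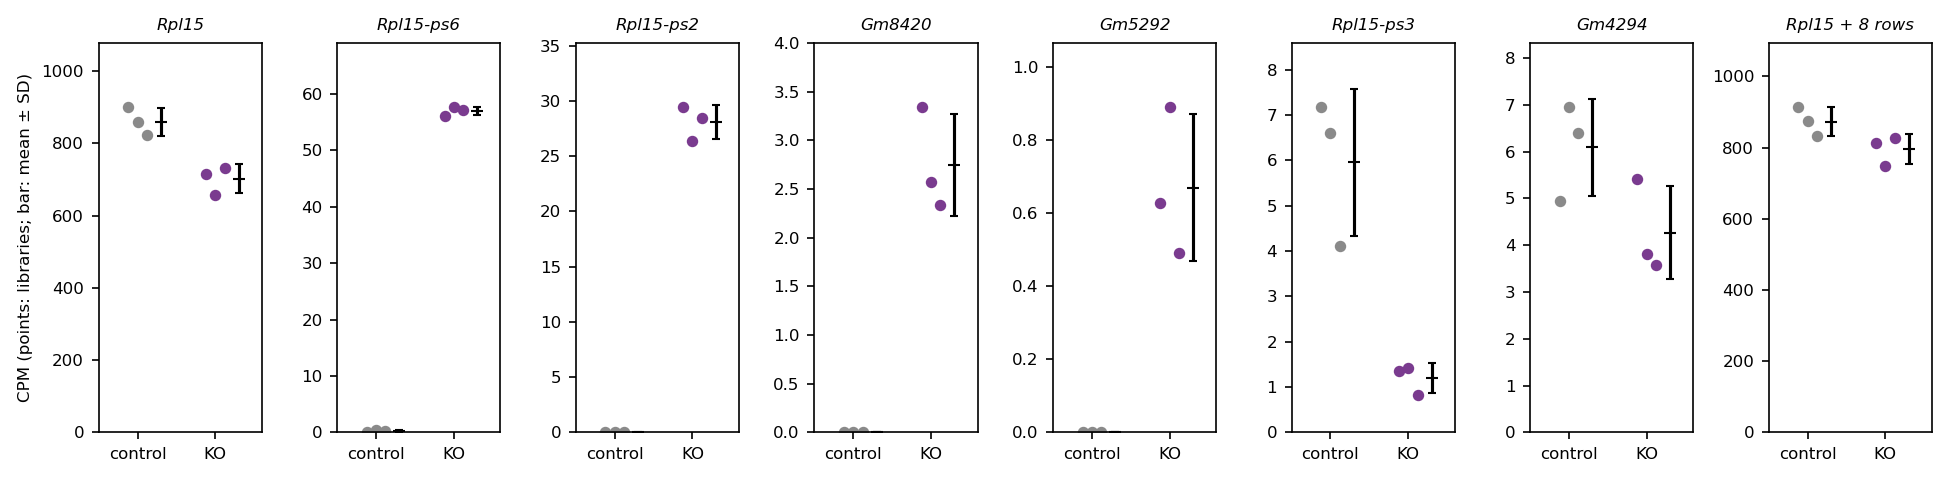
CPM of Rpl15, of 6 of its 8 matched pseudogene rows and of the sum of Rpl15 with all 8, by library (points, control grey and knockout purple) with the mean and SD of each group; every panel has its own axis from 0. Rpl15 is lower in the knockout, Rpl15-ps6, Rpl15-ps2, Gm8420 and Gm5292 are counted almost only there, and in the sum DE688 (826 CPM) comes close to DE689 (833 CPM).

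Rtraf, on the same chromosome as Rpl15, and Rtraf-ps showed opposite differences too. Rtraf, the gene of an RNA-binding protein (chromosome 14, 19811351 to 19823824, minus strand), had 75.7, 79.1 and 80.2 CPM in the knockout and 96.6, 98.1 and 94.6 CPM in the control libraries (log2 fold change −0.30, SE 0.05, adjusted p = 0.0412, edgeR, and 0.0813 to 0.176 without 1 library). Its processed pseudogene on chromosome 3 had 4.40, 4.09 and 3.31 CPM against 0.368, 0.101 and 0.279 CPM (4.00, SE 0.41, adjusted p = 0.00556, edgeR). Without both DE680 and DE685 neither passed (adjusted p = 0.152 for Rtraf and 0.0784 for Rtraf-ps, edgeR), and with upper-quartile factors Rtraf did not. On log2 of the deposited normalized values plus 1 the difference of Rtraf-ps was 1.98.

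Across the family, 323 of 1384 pseudogene rows matched 73 of the members at 90% identity or more over at least 50% of the row or of the transcript. Of the 149 tested, 5 had an adjusted p under 0.05 with edgeR, all matched to Rpl15, where 1.28% of the 545 tested pseudogene rows of any gene passed. That share is 7 rows, and it includes these 5 and Rtraf-ps. By symbol, 121 rows are named as ribosomal protein pseudogenes; 69 were tested, and 2 were higher (Rpl15-ps6 and Rpl15-ps2) and 1 lower (Rpl15-ps3). In 6 families the share of counts that went to the pseudogene rows moved by more than 5 percentage points between libraries: Rps2, Rpl34, Rps18, Rpl15, Rpl3 and Rps19. The largest range among the others was 3.39 points, in Rpl5. This limit was set after the shares had been seen. Among these 6, Rpl15 was the only one whose shares separated the groups.

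Rps2, a core protein of the mRNA channel of the small subunit, had the lowest log2 fold change of the members and one of the least certain. It had 254, 248 and 857 CPM in DE679, DE685 and DE688, against 271, 261 and 1356 CPM in DE680, DE684 and DE689. DE688 and DE689 were high and the other 4 low, in both groups, so the log2 fold change of −0.47 had an SE of 0.73 (adjusted p = 0.769, edgeR) and turned to 0.77 without DE689. Rps2-ps10 ran the opposite way, with 1130, 1171 and 490 CPM against 1246, 1275 and 9.32 CPM. The pseudogene share of the family was 81.7% to 83.1% in the 4 low libraries, 36.6% in DE688 and 1.15% in DE689. Summed, the family had 1391, 1424 and 1352 CPM in the knockout and 1528, 1544 and 1372 CPM in the control libraries, and the log2 fold change became −0.09 (SE 0.07, adjusted p = 0.480, edgeR).

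Rpl34 showed the same libraries apart. It had 162, 155 and 250 CPM in the knockout and 186, 175 and 322 CPM in the control libraries, again with DE688 and DE689 high (log2 fold change −0.27, SE 0.27, adjusted p = 0.618, edgeR, and 0.06 without DE689). Rpl34-ps1 (chromosome 6, 71124610 to 71124963, plus strand) had 106, 97.6 and 45.6 CPM against 118, 107 and 0.456 CPM. It differs from Rpl34 at 2 of 354 bases, T132C and C318G; the first is shown here, from position 117 to 147, with the differing base in capitals.
Rpl34: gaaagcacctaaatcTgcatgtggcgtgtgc
Rpl34-ps1: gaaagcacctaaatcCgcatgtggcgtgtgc

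Summed with its matched rows, Rpl34 had 269, 253 and 296 CPM in the knockout and 306, 285 and 323 CPM in the control libraries. Its log2 fold change was then −0.16 with an SE of 0.08 (adjusted p = 0.311, edgeR), close to that of the other members.

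For Rps18, at the head of the small subunit, 1 control library stood apart. It had 1002, 955 and 961 CPM in the knockout and 1123, 840 and 1000 CPM in the control libraries, with DE684 lowest of all. In DE684 alone, Rps18-ps6 (chromosome 13, 97760072 to 97760632, minus strand) had 208 CPM, Rps18-ps3 (chromosome 8, 107262793 to 107263248, minus strand) 47.9 CPM and Rps18-ps5 (chromosome 13, 28257528 to 28258134, plus strand) 15.9 CPM. In the other 5 libraries Rps18-ps6 had 5.16 to 6.02 CPM, and the pseudogene share was 24.4% in DE684 and at most 0.763% elsewhere. All 3 rows share the difference A337C from Rps18, shown in capitals in positions 322 to 352.
Rps18: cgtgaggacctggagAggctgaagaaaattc
Rps18-ps6: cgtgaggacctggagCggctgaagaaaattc
Rps18-ps3: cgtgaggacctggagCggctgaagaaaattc
Rps18-ps5: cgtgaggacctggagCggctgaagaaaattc

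With these rows added, the log2 fold change of Rps18 went from −0.02 (SE 0.10) to −0.15 (SE 0.07, adjusted p = 0.273, edgeR), beside a member median of −0.15. The summed levels were 1009, 961 and 968 CPM in the knockout and 1132, 1112 and 1007 CPM in the control libraries.

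Rpl3, which lies near the catalytic center of the large subunit, was split in 2 knockout libraries. It had 1317, 1249 and 1444 CPM in the knockout and 1630, 1583 and 1458 CPM in the control libraries, for a log2 fold change of −0.22 (SE 0.08, adjusted p = 0.192, edgeR). Rpl3-ps1 (chromosome X, 13202571 to 13203780) differs at 2 of 1210 aligned bases, C57A and T786C, and had 175 CPM in DE679 and 164 CPM in DE685 but 11.4 to 17.3 CPM in the other libraries. The sum of the family had a log2 fold change of −0.11 (SE 0.06, adjusted p = 0.372, edgeR). Rps19, a small subunit protein needed for the maturation of its RNA, had 724, 675 and 772 CPM against 923, 765 and 716 CPM, with DE680 apart from the rest. Its pseudogene share was 0.859% in DE680 and 5.50% to 10.9% in the others, and the log2 fold change was −0.15 (SE 0.10) alone and −0.12 (SE 0.07) summed.

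Rpl5, which carries 5S ribosomal RNA into the large subunit, had a large share in every library instead. Gm15500 has no difference from the Rpl5 transcript over 1018 aligned bases. It had 469, 464 and 462 CPM in the knockout and 532, 559 and 522 CPM in the control libraries, while Rpl5 had 884, 843 and 863 CPM against 985, 906 and 903 CPM. The matched rows held 34.9% to 38.3% of the family in all 6 libraries. Both rows were lower in the knockout without overlap, by −0.11 for Rpl5 and −0.21 for Gm15500. Reads from the identical stretch cannot be assigned to either row, so these are not separate observations. The sum had a log2 fold change of −0.15 (SE 0.06, adjusted p = 0.220, edgeR).

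**Figure D4:**
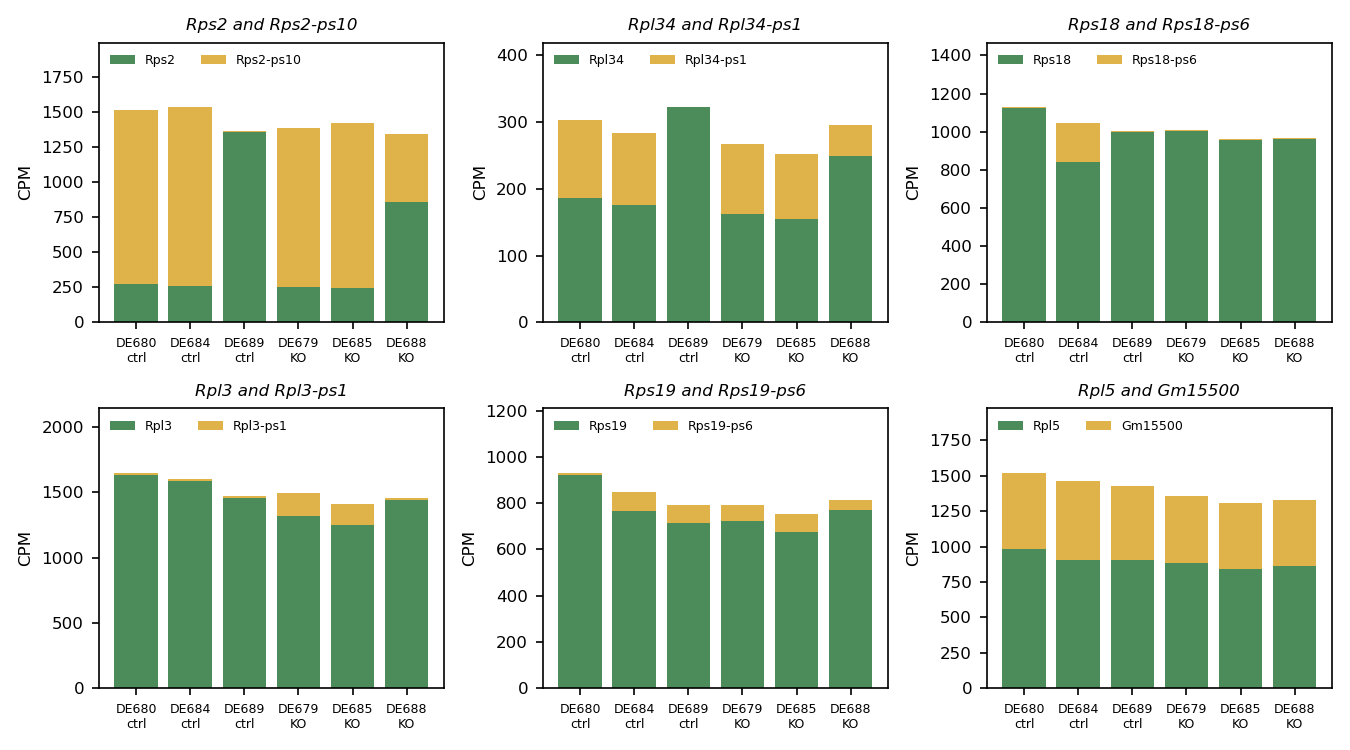
Stacked CPM of 6 ribosomal protein genes (green) and of 1 matched pseudogene row of each (yellow), by library, controls first; each panel has its own axis from 0. Except for Rpl5, whose split is much alike in all 6 libraries, the split moves with the library and the stack varies less. Rps2 has 1356 CPM in DE689 and 254 CPM in DE679, and Rps18-ps6 has 208 CPM in DE684 alone.

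Summing all members with their matched rows narrowed the family. The SD of the log2 fold changes of the members other than Rpl15, without Rps23rg1, went from 0.0667 to 0.0516, and the lowest value from −0.47 (Rps2) to −0.24 (Rps12). The number of members below 0 was again 82 and 50 did not overlap, 36 were lower at an unadjusted edgeR p under 0.05, and 0 had an adjusted p under 0.05. In the fit of single rows 9.1% of all genes were lower and 12.8% lay below without overlap. These shares are not given for the summed fit. The share of all counts held by members and matched rows was 6.31% to 6.72% in the knockout and 6.72% to 7.33% in the control libraries (exact two-sided permutation p = 0.1, the smallest possible).

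**Figure D5:**
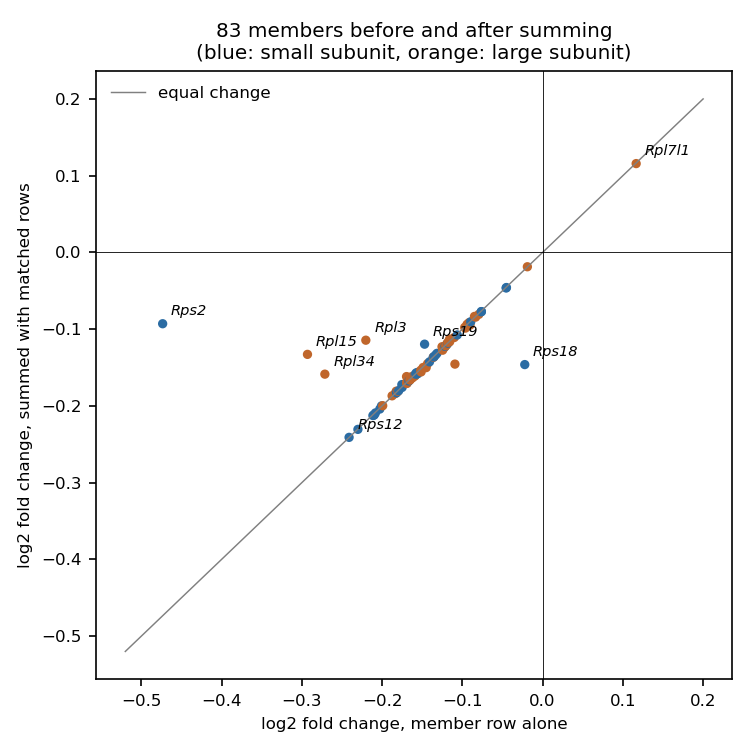
Log2 fold change of 83 members (Rps23rg1 is beyond the axes) when the member row is taken alone, horizontal, and when it is summed with its matched pseudogene rows, vertical; the line marks equal change. Most members lie on the line, and Rps2, Rpl15, Rpl34 and Rpl3 move up to between −0.16 and −0.09 while Rps18 moves down to −0.15.

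Genes that work with the ribosomal proteins were described by lists, beside a share of all genes of 9.1% lower, and 19.0% different either way, at an unadjusted p under 0.05. The knockout lay below the control without overlap for 12.8% of all genes. The 18 translation factors and partners whose mRNAs have the same terminal motif were all below 0, with a median log2 fold change of −0.13; 6 were lower at an unadjusted edgeR p under 0.05, 11 did not overlap and 0 passed the adjusted threshold. Btf3, a subunit of the complex that binds nascent chains, had 309, 300 and 311 CPM in the knockout and 378, 365 and 344 CPM in the control libraries (−0.24, SE 0.06, adjusted p = 0.0973, edgeR). Eif3e, of an initiation factor, had 216, 204 and 213 CPM against 253, 244 and 238 CPM (−0.21, SE 0.06, adjusted p = 0.108, edgeR). Their levels did not overlap between the groups.

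Of the 45 nucleolar genes for processing and modifying ribosomal RNA, 42 were below 0, with a median of −0.17, and 18 were lower at an unadjusted edgeR p under 0.05. Gnl3, nucleostemin, a nucleolar GTPase, was the 1 gene that passed: it fell from 75.7, 79.9 and 82.7 CPM in the control to 58.8, 64.7 and 60.6 CPM in the knockout libraries (log2 fold change −0.37, SE 0.06, adjusted p = 0.0389, edgeR). Leaving out any single library ended this call. Of 26 genes for chaperones, import and late assembly, 23 were below 0 (median −0.17), 9 were lower and 1 was higher at an unadjusted edgeR p under 0.05, and 0 passed. Nmd3, the export adaptor of the large subunit, had 32.9, 33.8 and 30.7 CPM against 39.1, 40.3 and 43.6 CPM (−0.34, SE 0.08, adjusted p = 0.0841, edgeR). Tnpo1, an importin, had 158, 164 and 149 CPM against 179, 197 and 193 CPM (−0.27, SE 0.06, adjusted p = 0.0892, edgeR).

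RNA polymerase I and its factors were less one-sided: 10 of 18 were below 0, with a median of −0.07, and 3 were lower and 1 higher at an unadjusted edgeR p under 0.05, with 0 past the adjusted threshold. Polr1d, a subunit shared with RNA polymerase III, had a log2 fold change of −0.21 (SE 0.05, adjusted p = 0.0997, edgeR), and Taf1d, of the promoter selectivity factor, −0.28 (SE 0.08, adjusted p = 0.122, edgeR). The 78 mitochondrial ribosomal protein genes, which serve the separate ribosome of the mitochondrion, had a median of −0.07 with 59 below 0. At an unadjusted edgeR p under 0.05, 14 of them were lower and 1 higher, and 0 passed the adjusted threshold. Mrps26 had −0.27 (SE 0.07, adjusted p = 0.0962, edgeR) and Mrpl20 −0.24 (SE 0.07, adjusted p = 0.129, edgeR). Their share of all counts was 0.221% ± 0.0051 in the knockout and 0.224% ± 0.0052 in the control (SD, n = 3 each), and these ranges overlapped.

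The 17 regulators of ribosomal protein mRNAs, among them mTOR, Larp1 and Myc, had a median of −0.06, with 6 lower and 1 higher at an unadjusted edgeR p under 0.05 and 0 past the adjusted threshold. Mycn, a transcription factor of the Myc family, had 12.6, 16.5 and 11.3 CPM in the knockout and 5.15, 8.64 and 6.58 CPM in the control libraries (0.98, SE 0.22, adjusted p = 0.0822, edgeR). Myc had 98.0, 95.9 and 97.0 CPM against 114, 109 and 112 CPM (−0.20, SE 0.05, adjusted p = 0.0997, edgeR). For both the groups did not overlap, in opposite directions. The 19 genes that are known to respond to p53 or to amino acid stress when ribosomal proteins are out of balance had a median of 0.09, with 3 higher and 2 lower at an unadjusted edgeR p under 0.05 (19.0% of all genes either way) and 0 past the adjusted threshold. Trp53inp1, a p53 target, had 115, 118 and 106 CPM against 71.0, 95.2 and 78.4 CPM (0.47, SE 0.11, adjusted p = 0.0860, edgeR). Bbc3, which promotes apoptosis, had 16.5, 16.8 and 15.4 CPM against 13.9, 12.1 and 12.7 CPM (0.33, SE 0.10, adjusted p = 0.141, edgeR). Of the 19 genes, 11 were above 0 and 8 below. Among those below, Zmat3 did not overlap (−0.20, SE 0.06, adjusted p = 0.153, edgeR), Mdm2 had −0.14 and Cdkn1a −0.0092.

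RefSeq promoter windows of GRCm38.p6, 300 bases around a start site, were given for 64 of the members, in 75 windows. The letters CCGGAA, on either strand, stood in 48.0% of these windows and in 14.9% of the 32851 windows of all genes. CTCTTT, on either strand, stood in 44.0% against 23.0%. Both were chosen with the sequences in view, and a match is a description of the letters only.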

How the data were processed

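The authors' count table holds estimated counts, not whole for every gene; a second deposited table holds normalized values (signal), used only for an alternative. The submitters' processing notes name bcl2fastq 2.20, cutadapt 1.18, STAR 2.7.0f, Partek and mm10, and per the labels' protocols a stranded mRNA kit was used. The counting tool and its strand setting are not given in the sources used here.

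The test had been planned for raw counts; for it, values were rounded to whole numbers. In R 4.3.3, edgeR 4.0.16 filtered the rows (filterByExpr defaults), scaled the libraries (TMM, trimmed mean of M values) and fitted genotype to all 6 libraries (glmQLFit, glmQLFTest). Benjamini-Hochberg adjustment covered all 15422 genes tested, with a threshold of 0.05. SE was computed from the log2 fold change and F. The fit was tested on simulated data, where it recovered 66.7% of genes changed 2-fold and 99% of those changed 4-fold. Smaller changes, such as those of the members, were not simulated. Where a group had no more than 3 counts in any library, the fold is a lower bound against that floor, which covers counting error only.

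Coordinates are 1-based on GRCm38; 19366 of 19618 rows had those of a GENCODE M21 gene. Pseudogene rows were matched to member transcripts with BLAST 2.17.0 at 90% identity or more over at least 50% of either sequence, and bases were compared with Biopython 1.88. Alternatives were other scalings and filters, DESeq2 1.42.0, limma 3.58.1, a sex term, single libraries left out, and sums with pseudogene rows.

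Named genes were Rpl15, Rtraf and their pseudogenes, Gpr161, Rpsa, the stalk proteins, the 5 smallest p, the 3 largest changes each way, the 3 highest and lowest levels, paralogs, called pseudogene rows, and from each list the called genes or up to 2 with the smallest p. Families whose pseudogene shares moved, Gm15500, Rpl12, Zmat3, Mdm2 and Cdkn1a were added after their values were seen. The members and lists were chosen with earlier results of these data known.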

Additional observations from a re-analysis of the deposited data

How the results depend on the processing

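The 3 libraries per group limit every test here. No member passed the adjusted threshold in edgeR under any scaling, filter, limma fit or sum with pseudogene rows, and 5 did in DESeq2 (3 small and 2 large subunit genes), where Rpl15 was −0.29 (adjusted p = 0.00264). DESeq2 also called 3 of the translation factors, 4 nucleolar genes, 3 chaperones and assembly genes, 2 regulators and 1 imbalance gene. It called 879 genes in all, 310 of them lower. A sex term gave 1 regulator and 1 imbalance gene and 409 genes in all. With upper-quartile factors 13 members were lower at an unadjusted p. Without 1 library that number was 7 to 47, the nucleolar calls were 0 to 0, the imbalance calls 0 to 1, and 69 to 121 genes were called in all. Without both DE680 and DE685 it was 3, with a median of −0.081 and 0 nucleolar calls. The shares of all genes lower at an unadjusted p in these fits are not given. Among scalings the median of the members was −0.13 to −0.15.

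Signs turned for a few members, none called. Without DE680 they were Rps15 (0.0068), Rps18 (0.079) and Rpl36 (0.088), without DE684 Rps9 (0.0056), without DE685 Rpl36 (0.0075), and without DE689 Rps2 (0.77) and Rpl34 (0.065). Over the 6 single libraries left out, Rps2 ran from −1.33 to 0.77, Rpl34 from −0.53 to 0.065, Rps15 from −0.093 to 0.0068 and Rpl36 from −0.084 to 0.088. Without both DE680 and DE685 they were Rps19 (0.013), Rplp2 (0.0083), Rps21 (0.042), Rps9 (0.017), Rps15 (0.026), Rps18 (0.092) and Rpl36 (0.12). The cause was not tested. No paired analysis was possible because the columns carry no replicate numbers.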
